A study of Mus musculus with 12 samples.

Results

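The 49 genes described here encode the T cell receptor (TCR) complex and the proteins that carry its signal: the CD3 chains, adaptors, Tec kinases, phosphatases, ubiquitin ligases, and calcium and NFAT genes. They were picked by symbol, for what their products do, from the 23234 features of the expression table, with earlier results of these data known, and all 49 had a mean of at least 1 FPKM (fragments scaled to transcript length and to library size) over the 12 libraries. By what is known of their products, 32 were treated as positive regulators, 13 as negative regulators, and 4 (Themis, Cd6, Cd69 and Sh2d2a) as mixed or as markers of signalling.

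Expression was measured by RNA-seq of sorted CD24hiTCRβlo CD4+CD8+ thymocytes, the stage before positive selection, from C57BL/6 mice. The extraction text in the labels speaks instead of double-negative NKT cells, and the source names and the study's methods were followed here. There were 5 wild-type, 3 Bcl11bm/m and 4 Bcl11bfl/fl:Cd4-Cre libraries, the last called cKO after their sample titles, and the question was how each Bcl11b mutation changed expression at this stage. Wild-type and Bcl11bm/m thymocytes came from newborn mice, and the age of the cKO mice is not stated in the labels, so that age and genotype cannot be told apart where those mice are compared with wild-type. Bcl11bm/m mice are homozygous for a germline allele of the zinc-finger transcription factor Bcl11b. A frameshift removes the last zinc finger of its product, and the homozygotes die soon after birth. The cKO mice (Bcl11bfl/fl:Cd4-Cre) carry floxed Bcl11b alleles and a Cre recombinase driven by Cd4 regulatory sequences, which deletes them at the CD4+CD8+ stage. No floxed mice without Cre, and no mice with Cre alone, were analysed here. Groups follow the sample titles and the stated design, because the free-text descriptions name Bcl11bm/m for the wild-type samples and Bcl11b+/+ for the cKO samples. The labels do not say whether replicates were separate animals, so p-values measure the spread between these samples, which may be technical.

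In a CD4+CD8+ thymocyte, engagement of the TCR by self-peptide on MHC leads to phosphorylation of the CD3 chains by Lck and recruitment of Zap70, which phosphorylates the adaptors Lat and Lcp2. Phospholipase C-gamma1 docks on this platform and produces diacylglycerol, which feeds the Ras and protein kinase C branches, and inositol trisphosphate, which releases calcium and activates calcineurin and NFAT. Inhibitors such as Cd5, Ptpn6, Csk, the Cbl ligases and the diacylglycerol kinases damp the signal, whose strength decides between positive and negative selection.

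Depth had to be estimated from the spacing of low FPKM values, and came to 3960000 to 6910000 fragments per library in wild-type, 2720000 to 4190000 in Bcl11bm/m and 10780000 to 45850000 in cKO. Each cKO library was thus deeper than any wild-type or Bcl11bm/m library, so that depth and genotype cannot be told apart where cKO is compared. The smallest estimated count of any member was 16 fragments, for Ppp3ca in Bcl11bm/m replicate 3. Bcl11b itself, the targeted gene, was at 132 to 292 FPKM in wild-type, 430 to 482 in Bcl11bm/m and 115 to 140 in cKO. These are values of the whole gene, which do not separate the frameshifted or deleted exons and so do not check the alleles. The sorted stage was checked with marker genes. Cd4, Cd8a, Rag1 and the rest of a list of 10 CD4+CD8+ thymocyte markers summed to 5319 to 7065 FPKM in wild-type, 3849 to 4337 in Bcl11bm/m and 3566 to 5814 in cKO. A list of 12 post-selection thymocyte markers summed to 170 to 316, 408 to 629 and 157 to 310 FPKM, and 10 NK and innate lymphocyte markers to 18.6 to 71.2, 216 to 417 and 67.8 to 198.0 FPKM in the same order. In Bcl11bm/m, 6 of the CD4+CD8+ markers fell and 8 of the post-selection markers rose. In cKO, 2 of the CD4+CD8+ markers fell (Cd24a and Ccr9), 6 of the post-selection markers rose and 1 fell. Cd24a, the gene of the CD24 used in sorting, fell in both mutants without overlap with wild-type. Its means were 182 FPKM in wild-type, 79.8 in Bcl11bm/m and 80.2 in cKO. The 10 myeloid markers summed to 7.01 to 14.1, 19.7 to 70.4 and 2.57 to 12.6 FPKM, with Mpeg1, Fcgr3 and Tyrobp called higher in Bcl11bm/m, Lyz2 and Mpeg1 called lower in cKO, and S100a8 at 0 in wild-type and Bcl11bm/m. Tyrobp had means of 1.30, 14.3 and 1.49 FPKM. In the same order, sums were 41.0 to 68.4, 145 to 165 and 83.6 to 129 FPKM for the 10 thymic stroma markers. The NK sum was mostly Gzma, at means of 36.3, 276 and 110.1 FPKM, while Prf1 rose from 2.45 to 5.12 FPKM in Bcl11bm/m and fell to 0.946 in cKO. For thymic stroma the sum was mostly Pecam1, at means of 53.8, 149.5 and 105.8 FPKM, while Epcam fell from 3.04 to 0.303 and 0.786 FPKM. The 10 gamma-delta or double-negative thymocyte markers summed to 264 to 292 FPKM in wild-type, 336 to 426 in Bcl11bm/m and 253 to 429 in cKO. Of the 8 tested, Cd163l1, Il2ra, Cd44 and Kit rose and Ptcra and Il17re fell in Bcl11bm/m, with Il2ra at 3.73 FPKM in wild-type and 62.9 in Bcl11bm/m, and in cKO 1 rose (Cd44). B cell and erythroid markers summed to at most 41.5 and 34.6 FPKM in any library. Pax5 was at 0 in wild-type and at means of 0.202 and 0.200 FPKM in the mutants, and Cd79a rose from 0.383 to 1.998 FPKM in cKO (adjusted p = 0.0237). The part of these markers in the results for the signalling genes was not tested, and in bulk samples fewer cells of a type and less RNA per cell cannot be told apart.

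The members spanned a wide range of expression in wild-type thymocytes. Lat had the highest mean, 642 ± 158 FPKM (SD, n = 5), followed by Cd3e at 604 ± 143, Cd3g at 558 ± 142 and Cd247 at 447 ± 86.3, each with overlapping ranges between libraries. In all, 23 members had a wild-type mean above 100 FPKM and 6 a mean under 10 FPKM. The latter were Nfatc2 at 5.73 ± 1.59, the calcium channel Orai1 at 5.98 ± 1.60, the ubiquitin ligase Cblb at 6.29 ± 1.50, the Ras exchange factor Sos1 at 7.35 ± 1.47, the calcineurin subunit Ppp3ca at 7.72 ± 3.12 and the paracaspase Malt1 at 7.84 ± 0.854 FPKM. Variation between libraries was larger in wild-type than in the mutants, with a median coefficient of variation over the 49 members of 17.5%, against 9.0% in Bcl11bm/m and 13.8% in cKO. These are FPKM without further scaling. The median ratio of a library to the average library, over features, also spread more in wild-type. It ran from 0.858 to 1.181 there, from 0.975 to 1.091 in Bcl11bm/m and from 0.918 to 0.981 in cKO. Its part in the variation of the members was not tested. Wild-type replicate 1 was the lowest wild-type library for 25 members, and wild-type replicate 4 was the highest for 22 and the lowest for 14.

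Differences below are of group means of log2(FPKM + 1), a scale that understates the change of genes near 1 FPKM, and were tested with limma over 10780 features, where a Benjamini-Hochberg adjusted p under 0.05 passed. In Bcl11bm/m against wild-type, 12 of the 49 members (24.5%) passed, where 17.3% of all features tested did. Of these, 7 rose (Plcg1, Fyb, Ptprc, Cd2, Nfatc2, Ptpn6 and Dgka), beside 9.92% of all features, and 5 fell (Cd3e, Lat, Pag1, Cd5 and Cd6), beside 7.39%. In cKO against wild-type, 10 members (20.4%) passed, where 14.5% of all features did. Here 4 rose (Plcg1, Nfatc2, Dgka and Ubash3a), beside 4.65% of all features, and 6 fell (Trat1, Themis, Cd28, Cd69, Ppp3cb and Pag1), beside 9.86%. Both comparisons use the same wild-type libraries. Over all members the median difference was -0.07 in Bcl11bm/m and -0.23 in cKO, beside medians of -0.02 and -0.09 over all features.

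Positive and negative regulators each held genes that rose and genes that fell. Among the 32 positive regulators, 5 rose and 2 fell in Bcl11bm/m (median difference -0.05), and 2 rose and 3 fell in cKO (median -0.24). Among the 13 negative regulators, 2 rose and 2 fell in Bcl11bm/m (median 0.02), and 2 rose and 1 fell in cKO (median 0.21). In Bcl11bm/m 21.9% of the positive and 30.8% of the negative regulators thus passed, beside 17.3% of all features. In cKO these shares were 15.6% and 23.1%, beside 14.5%. The shares of the classes were not tested against that of all features. Of the 4 mixed genes, 1 fell in Bcl11bm/m and 2 fell in cKO. Dividing each library by its median ratio moved the cKO median over all features from -0.09 to 0.01. The median of the positive regulators moved to -0.13 and that of the negative regulators to 0.33. The split of called members in cKO turned from 4 higher and 6 lower to 7 higher and 3 lower. The higher share of all features called in cKO also rose, from 32.03% to 47.33%. Library quality weights gave 5 higher and 16 lower in cKO, and omission of wild-type replicate 1 gave 4 and 14. The higher share was thus 23.8% and 22.2% of the called members, beside 26.7% and 23.2% of all called features. In Bcl11bm/m these settings gave 6 higher and 7 lower, 9 and 18, and 6 and 14, in the same order. Of all features called there, 55.1%, 45.3% and 48.2% were higher, beside 57.3% in the main setting. These settings also called more features as a whole, 22.1%, 33.4% and 21.8% in Bcl11bm/m and 16.7%, 29.5% and 24.8% in cKO. Without wild-type replicate 1, the added lower calls in Bcl11bm/m were Cd3d, Cd3g, Cd247, Vav1, Nfatc3, Ppp3cb and Stim1 (positive) and Sla and Sla2 (negative). In cKO they were Cd3g, Cd247, Grb2, Nck1, Skap1, Prkcq and Nfatc3 (positive) and Sla (negative).

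**Figure D1:**
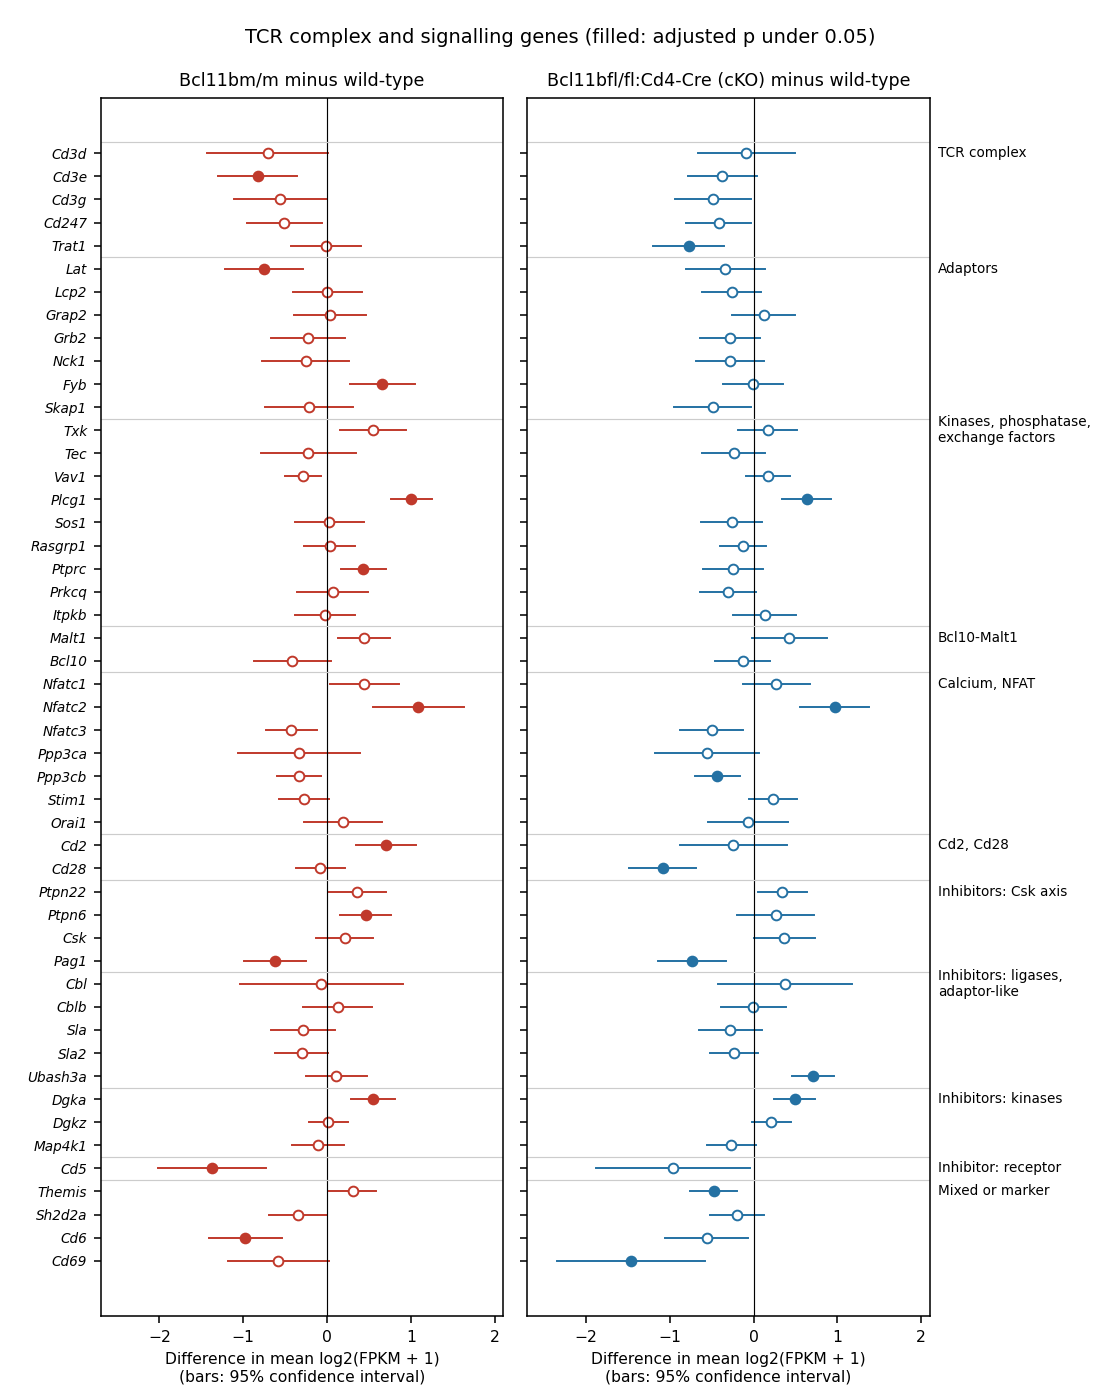
Difference in mean log2(FPKM + 1) between Bcl11bm/m and wild-type (left, red) and between cKO and wild-type (right, blue) for each of the 49 members, grouped by role, with 95% confidence intervals. Filled points passed the test, 12 on the left and 10 on the right, and they lie on both sides of 0 in each panel, from -1.37 (Cd5) to 1.09 (Nfatc2) on the left and from -1.46 (Cd69) to 0.97 (Nfatc2) on the right.

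The promoter windows of 5 called members are shown to give the sequence around the starts of genes that moved in different directions. They are the 4 called members with a single annotated start whose window held a RUNX motif, and Plcg1, which had the lowest adjusted p in Bcl11bm/m. Each window runs from 250 bases before to 50 bases after the start, 5′ to 3′ on the strand of the gene, from RefSeq on GRCm38.p6, which is a later build than that of the expression table. Capitals mark ACCACA or ACCGCA (bound by Runx proteins) and GGAAGT (bound by ETS proteins), searched on both strands. The windows are Cd5 at chr19:10738925-10739224 (minus strand), Lat at chr7:126369519-126369818 (minus), Trat1 at chr16:48772013-48772312 (minus), Ubash3a at chr17:31207816-31208115 (plus) and Plcg1 at chr2:160731060-160731359 (plus).
Cd5: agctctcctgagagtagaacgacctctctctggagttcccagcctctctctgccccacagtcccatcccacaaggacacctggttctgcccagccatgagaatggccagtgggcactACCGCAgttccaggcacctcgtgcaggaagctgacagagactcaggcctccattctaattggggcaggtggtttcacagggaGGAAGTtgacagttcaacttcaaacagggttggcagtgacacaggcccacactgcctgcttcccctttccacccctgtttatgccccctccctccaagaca
Lat: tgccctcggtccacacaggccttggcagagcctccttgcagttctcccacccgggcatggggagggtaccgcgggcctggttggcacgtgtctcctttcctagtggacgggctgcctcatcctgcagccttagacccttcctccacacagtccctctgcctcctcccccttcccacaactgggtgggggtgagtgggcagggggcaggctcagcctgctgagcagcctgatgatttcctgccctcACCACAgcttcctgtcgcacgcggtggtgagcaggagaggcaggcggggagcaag
Trat1: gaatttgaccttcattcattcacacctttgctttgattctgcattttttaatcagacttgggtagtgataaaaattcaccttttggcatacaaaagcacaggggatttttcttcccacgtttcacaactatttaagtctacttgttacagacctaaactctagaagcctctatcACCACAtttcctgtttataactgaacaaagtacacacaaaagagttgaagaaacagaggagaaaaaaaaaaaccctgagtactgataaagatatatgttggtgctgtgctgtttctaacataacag
Ubash3a: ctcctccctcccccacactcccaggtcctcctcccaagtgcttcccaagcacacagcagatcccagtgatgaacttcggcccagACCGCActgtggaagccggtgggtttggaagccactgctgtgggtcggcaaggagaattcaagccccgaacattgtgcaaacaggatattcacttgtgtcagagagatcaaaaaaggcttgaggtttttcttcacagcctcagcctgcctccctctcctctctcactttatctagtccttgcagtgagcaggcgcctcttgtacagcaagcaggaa
Plcg1: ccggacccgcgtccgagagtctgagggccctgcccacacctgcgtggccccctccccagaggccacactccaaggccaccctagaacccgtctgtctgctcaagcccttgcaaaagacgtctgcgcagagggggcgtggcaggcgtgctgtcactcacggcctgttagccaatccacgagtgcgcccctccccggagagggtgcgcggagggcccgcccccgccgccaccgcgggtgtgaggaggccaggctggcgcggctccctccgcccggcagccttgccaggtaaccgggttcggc
The RUNX letters lie 133 bases before the start in Cd5, 5 bases before it in Lat, 76 in Trat1 and 166 in Ubash3a, and the ETS letters lie 51 bases before the start in Cd5. The Plcg1 window held neither. Windows were found for 38 of the 49 members, 52 windows in all. The RUNX letters were in 8 of the 52 (15.4%), against 22.4% of all 32851 windows, and the ETS letters in 21 (40.4%), against 23.8% of all windows. The E-box CAGCTG was in 15.4% of the members' windows and 16.3% of all, and the NFAT letters GGAAAA in 17.3% and 23.4%. A match describes the letters only, and the shares were not tested.

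Within the receptor complex, the CD3 genes encode the invariant chains whose tyrosine motifs start the signal. A cluster of them lies on chromosome 9 in mm9: Cd3g at chr9:44777655-44788514 and Cd3d at chr9:44789876-44795135 are transcribed away from each other with 1361 bases between them, and Cd3e at chr9:44806826-44817673 lies 11690 bases beyond Cd3d. Cd3e, the epsilon chain, was at 456, 506, 591, 826 and 638 FPKM in wild-type, 321, 329.9 and 346 FPKM in Bcl11bm/m and 447, 423, 468 and 489.6 FPKM in cKO, in replicate order. Each Bcl11bm/m library was below each wild-type and each cKO library. In Bcl11bm/m the mean was 0.551 times that of wild-type, a log2 difference of -0.83 (SE 0.21, adjusted p = 0.0270, and 0.0571 to 0.0998 without wild-type replicate 3 or 5 or any Bcl11bm/m library). The difference of cKO from wild-type was -0.37 (SE 0.18, adjusted p = 0.203) and did not pass, and that of Bcl11bm/m from cKO was -0.46 (SE 0.11, adjusted p = 0.0473, and 0.0750 to 0.131 without any Bcl11bm/m library or any cKO library). The call between the mutants was also lost with no filter, quantile normalization, a fit of all 3 groups and robust empirical Bayes.

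Cd3g, the gamma chain, was at 357, 540.1, 574, 757 and 561 FPKM in wild-type, 441, 329.9 and 344 FPKM in Bcl11bm/m and 349.6, 388, 382 and 436 FPKM in cKO. Its groups overlapped through wild-type replicate 1, the lowest wild-type library, and neither difference from wild-type passed, at -0.56 (SE 0.24, adjusted p = 0.165) in Bcl11bm/m and -0.48 (SE 0.20, adjusted p = 0.141) in cKO. Cd247, the zeta chain, was at 342, 375, 462, 529.9 and 528 FPKM in wild-type, 360.4, 290.5 and 282 FPKM in Bcl11bm/m and 309, 354, 286 and 378 FPKM in cKO. Here too wild-type replicates 1 and 2 reached down to the mutant libraries, and the differences were -0.51 (SE 0.20, adjusted p = 0.119) and -0.42 (SE 0.18, adjusted p = 0.141). Cd3d, the delta chain, was at 117, 205, 251, 327 and 192 FPKM in wild-type, 167, 105 and 115 FPKM in Bcl11bm/m and 202, 164, 194 and 225 FPKM in cKO. Bcl11bm/m replicates 2 and 3 were below each wild-type library, and replicate 1 and the cKO libraries lay within the wild-type range. The differences were -0.71 (SE 0.32, adjusted p = 0.173) in Bcl11bm/m and -0.09 (SE 0.26, adjusted p = 0.857) in cKO, the latter turning to 0.03 with median-ratio scaling, 0.07 with quantile normalization, 0.07 without short RNA features and 0.08 without wild-type replicate 4.

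The summed FPKM of the 4 CD3 chains ran from 1273 (replicate 1) to 2440 (replicate 4) in wild-type, from 1055 to 1290 in Bcl11bm/m and from 1307 to 1529 in cKO. The same wild-type libraries stood at the ends of the median ratio over all features, 0.858 in replicate 1 and 1.18 in replicate 4. Wild-type replicate 1 decided several calls. Without it, Cd3d, Cd3g and Cd247 passed in Bcl11bm/m, and Cd3g and Cd247 in cKO. In Bcl11bm/m these 3 chains also passed with library quality weights and without short RNA features, where 33.4% and 22.3% of all features passed. Cd3g and Cd247 passed there with median-ratio scaling, and Cd3d and Cd3g with quantile normalization. In cKO, Cd3g passed with quantile normalization, quality weights and without short RNA features.

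Trat1, a transmembrane adaptor that associates with the TCR, showed another pattern. It was at 96.3, 114, 125, 160.5 and 149 FPKM in wild-type, 109, 138 and 134 FPKM in Bcl11bm/m and 83.5, 91.1, 55.4 and 69.6 FPKM in cKO. All 4 cKO libraries were below all wild-type and Bcl11bm/m libraries, which overlapped with each other. Trat1 fell in cKO to 0.581 times the wild-type mean, a log2 difference of -0.78 (SE 0.19, adjusted p = 0.0251, and 0.0516 to 0.0726 without wild-type replicate 3 or 5 or cKO replicate 1, 3 or 4), and was higher in Bcl11bm/m than in cKO by 0.77 (SE 0.18, adjusted p = 0.0427, and 0.0539 to 0.132 without any Bcl11bm/m library or cKO replicate 1 or 4). The latter call was also lost with median-ratio scaling, quantile normalization, no filter and without short RNA features. Against wild-type, Bcl11bm/m differed by -0.01 (95% confidence interval -0.43 to 0.41, adjusted p = 0.987).

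**Figure D2:**
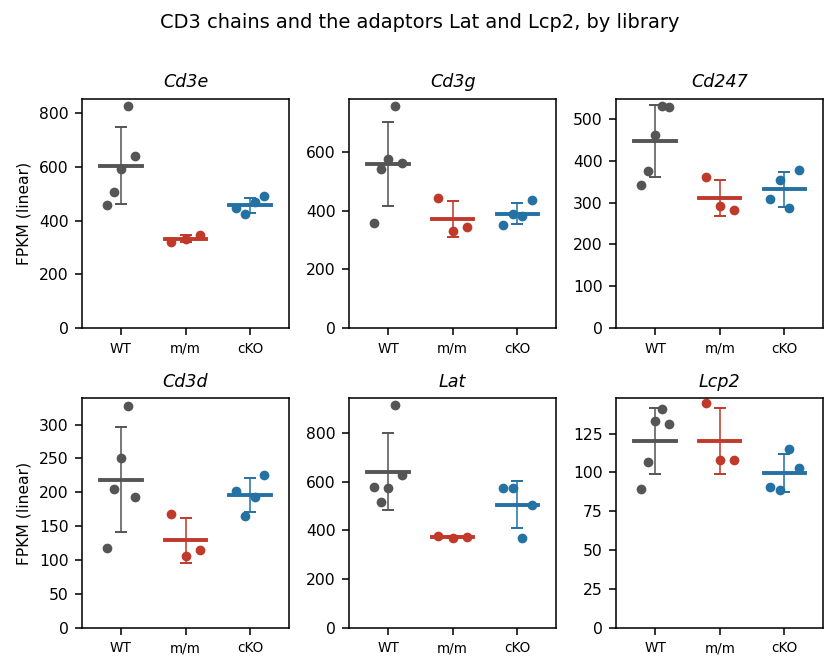
FPKM of the CD3 chains and the adaptors Lat and Lcp2 in each library (points), on linear axes from 0, in wild-type (WT, n = 5), Bcl11bm/m (m/m, n = 3) and Bcl11bfl/fl:Cd4-Cre (cKO, n = 4), with the mean (thick bar) and SD (whiskers). The 3 Bcl11bm/m libraries lie below every wild-type library for Cd3e (321 to 346 against 456 to 826) and Lat (369 to 375 against 515 to 915), while for Lcp2 the groups overlap.

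Downstream of the receptor, Lat, the membrane scaffold phosphorylated by Zap70, was at 578, 515, 573, 915 and 626 FPKM in wild-type, 375, 369 and 372 FPKM in Bcl11bm/m and 574, 572, 369.5 and 504 FPKM in cKO. Bcl11bm/m libraries were nearly identical to each other (mean 372 ± 3.46) and below each wild-type library, of which replicate 4 stood far above the rest. The Bcl11bm/m mean was 0.580 times that of wild-type, a log2 difference of -0.75 (SE 0.20, adjusted p = 0.0369, and 0.0621 to 0.128 without wild-type replicate 3 or 5 or any Bcl11bm/m library), and this call was also lost with quantile normalization and with no filter. In cKO, replicates 1 and 2 were at wild-type levels and replicate 3 at the Bcl11bm/m level, and the difference was -0.34 (SE 0.21, adjusted p = 0.312). Lcp2, the SLP-76 adaptor that bridges Lat to phospholipase C, was at 89.5, 107, 133, 141 and 131 FPKM in wild-type, 145, 108 and 108 FPKM in Bcl11bm/m and 90.6, 88.9, 115 and 103 FPKM in cKO. Its groups overlapped throughout, with differences of 0.00 (95% confidence interval -0.41 to 0.42, adjusted p = 0.996) in Bcl11bm/m and -0.26 (95% confidence interval -0.61 to 0.09, adjusted p = 0.294) in cKO.

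Fyb, the ADAP adaptor that links the TCR to integrins, went the other way from Lat. It was at 180.0, 171, 199, 119.8 and 179 FPKM in wild-type, 271, 272 and 250.4 FPKM in Bcl11bm/m and 149.8, 155, 187 and 177 FPKM in cKO. Bcl11bm/m libraries were above all others, and cKO libraries lay within the wild-type range. Fyb rose 1.56-fold in Bcl11bm/m, a log2 difference of 0.66 (SE 0.17, adjusted p = 0.0308, and 0.0572 to 0.113 without wild-type replicate 2 or 5 or any Bcl11bm/m library), and exceeded cKO by 0.67 (SE 0.12, adjusted p = 0.0172, and 0.0609 to 0.0656 without Bcl11bm/m replicate 2 or 3). With median-ratio scaling the call against wild-type was lost. Against wild-type, cKO differed by -0.01 (95% confidence interval -0.36 to 0.35, adjusted p = 0.981). Exons of Fyb overlap a pseudogene and an antisense transcript, so that part of its value may be theirs. The other 4 adaptors, Grap2 (the Gads adaptor of Lcp2), Grb2 (which brings Sos1 to Lat), Nck1 and Skap1, passed in neither mutant, and with Lcp2 their differences in Bcl11bm/m ran from -0.26 to 0.03. Among all 7 adaptors, Lat and Fyb thus passed in Bcl11bm/m, and in cKO 0 passed in limma, with 1 at an unadjusted p under 0.05 and differences from -0.49 to 0.12. Over all features 17.3% and 14.5% passed. Grb2, Nck1 and Skap1 were called lower in cKO with quality weights and without wild-type replicate 1, where 29.5% and 24.8% of all features passed. Nck1 was also called lower in Bcl11bm/m with quality weights.

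Among the kinases, exchange factors and related enzymes, Plcg1, which encodes phospholipase C-gamma1 (chr2:160557036-160601496 in mm9), had the lowest adjusted p of the members in Bcl11bm/m. It was at 50.3, 56.8, 55.9, 46.8 and 58.4 FPKM in wild-type, 115, 108 and 102 FPKM in Bcl11bm/m and 84.2, 70.4, 102 and 79.7 FPKM in cKO. The wild-type libraries lay close together, and all 7 mutant libraries were above them. The means were 53.6 ± 4.89, 108 ± 6.32 and 84.2 ± 13.4 FPKM (SD, n = 5, 3 and 4). Plcg1 rose 2.02-fold in Bcl11bm/m, a log2 difference of 1.004 (SE 0.11, adjusted p = 0.000552), and 1.57-fold in cKO, a difference of 0.63 (SE 0.13, adjusted p = 0.0126). The mutants overlapped with each other and differed by 0.37 (95% confidence interval 0.06 to 0.69, adjusted p = 0.123). Exons of Plcg1 overlap Zhx3 on the opposite strand, which was at 3.14 to 7.49 FPKM in wild-type, 9.11 to 10.4 in Bcl11bm/m and 7.47 to 9.76 in cKO, and its part in the Plcg1 difference was not tested.

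Ptprc, the CD45 phosphatase that keeps Lck active, was at 266, 221, 216, 233 and 235 FPKM in wild-type, 308, 332 and 309 FPKM in Bcl11bm/m and 252, 216, 151 and 184 FPKM in cKO. All Bcl11bm/m libraries were above all other libraries, while those of cKO spread from below to within the wild-type range. Ptprc rose 1.35-fold in Bcl11bm/m, a log2 difference of 0.43 (SE 0.12, adjusted p = 0.0364, and 0.0501 to 0.145 without wild-type replicate 2, 3, 4 or 5 or any Bcl11bm/m library), a call also lost with median-ratio scaling, quantile normalization, a fit of all 3 groups, robust empirical Bayes and without short RNA features. In cKO the difference was -0.24 (SE 0.16, adjusted p = 0.331). The other 7 genes of this kind passed in neither mutant: the Tec kinases Txk and Tec, the Rac exchange factor Vav1, the Ras exchange factors Sos1 and Rasgrp1, the kinase Prkcq and the inositol trisphosphate kinase Itpkb. In Bcl11bm/m their differences ran from -0.29 (Vav1) to 0.55 (Txk). Those 2 genes did not overlap with wild-type but missed the threshold, with adjusted p of 0.0741 for Vav1 and 0.0642 for Txk. Txk was called higher with median-ratio scaling, quantile normalization, a fit of all 3 groups, quality weights and without short RNA features, and Vav1 lower with no filter, quality weights and without wild-type replicate 1. In cKO, Prkcq and Sos1 were called lower with quality weights, and Prkcq also without wild-type replicate 1.

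In the calcium and NFAT branch, Nfatc2, the NFAT1 transcription factor that calcineurin brings to the nucleus, was at 4.61, 7.47, 6.81, 3.61 and 6.14 FPKM in wild-type, 9.79, 14.9 and 14.9 FPKM in Bcl11bm/m and 13.9, 11.7, 11.4 and 10.5 FPKM in cKO. All 7 mutant libraries were above the highest wild-type library. Nfatc2 rose 2.30-fold in Bcl11bm/m, a log2 difference of 1.09 (SE 0.24, adjusted p = 0.0162, and 0.0656 to 0.0779 without Bcl11bm/m replicate 2 or 3), and 2.08-fold in cKO, a difference of 0.97 (SE 0.19, adjusted p = 0.0101). It was the lowest member in wild-type and stayed below the related Nfatc3, at 156 ± 23.3, 115 ± 4.47 and 111 ± 24.4 FPKM, and Nfatc1, at 27.1 ± 5.87, 36.6 ± 2.05 and 32.6 ± 5.61 FPKM, in every group. Nfatc3 differed from wild-type by -0.43 (SE 0.13, adjusted p = 0.0629) in Bcl11bm/m and -0.50 (SE 0.17, adjusted p = 0.0716) in cKO, and Nfatc1 by 0.44 (SE 0.18, adjusted p = 0.140) and 0.27 (SE 0.18, adjusted p = 0.339), and neither gene passed. Nfatc3 was called lower in both mutants with quality weights and without wild-type replicate 1, and in cKO also in a fit of all 3 groups and without cKO replicate 2.

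Ppp3cb, a catalytic subunit of calcineurin, was at 28.4, 35.9, 32.9, 36.4 and 33.0 FPKM in wild-type, 23.4, 26.5 and 28.6 FPKM in Bcl11bm/m and 23.8, 29.4, 21.7 and 23.1 FPKM in cKO. In cKO, 3 of the 4 libraries were below wild-type and replicate 2 lay within its range. It fell there to 0.735 times the wild-type mean, a log2 difference of -0.43 (SE 0.12, adjusted p = 0.0399, and 0.0673 to 0.115 without wild-type replicate 2, 3, 4 or 5 or cKO replicate 1, 3 or 4), and the call was also lost with median-ratio scaling, with quantile normalization and without short RNA features. In Bcl11bm/m the difference was -0.34 (SE 0.12, adjusted p = 0.0877), called lower with quality weights and without wild-type replicate 1. Stim1, the calcium sensor of the endoplasmic reticulum, was at 33.0, 39.2, 44.4, 45.0 and 46.5 FPKM in wild-type, 37.1, 32.9 and 32.3 FPKM in Bcl11bm/m and 45.7, 47.1, 57.0 and 46.1 FPKM in cKO. Neither mutant was past the threshold against wild-type. Stim1 was called higher in cKO with median-ratio scaling, quantile normalization and without short RNA features, and lower in Bcl11bm/m with median-ratio scaling, quality weights and without wild-type replicate 1. The mutants did not overlap, and Bcl11bm/m was lower than cKO by a log2 difference of -0.51 (SE 0.11, adjusted p = 0.0311, and 0.0552 to 0.115 without Bcl11bm/m replicate 2 or 3 or cKO replicate 1, 2 or 4). Ppp3ca and Orai1 passed in neither mutant, with confidence half-widths of up to 0.73 in Bcl11bm/m. Malt1 and Bcl10, which carry the signal to NF-kappaB, also did not pass. Malt1 differed by 0.44 in Bcl11bm/m (adjusted p = 0.0590) with no overlap between the groups, and was called higher there with quality weights. Bcl10 differed by -0.41 in Bcl11bm/m (adjusted p = 0.212) and was called lower there with quality weights.

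**Figure D3:**
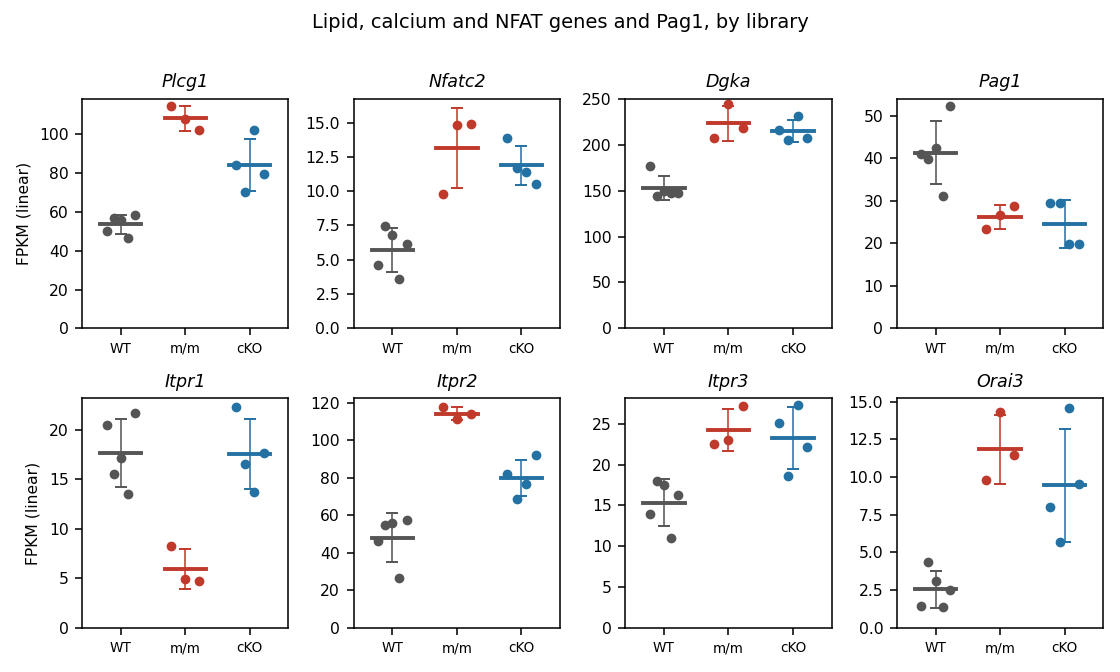
FPKM of Plcg1, Nfatc2, the diacylglycerol kinase Dgka and the Csk anchor Pag1 (top), and of the calcium release and entry channels Itpr1, Itpr2, Itpr3 and Orai3 (bottom), in each library (points) of wild-type (n = 5), Bcl11bm/m (n = 3) and cKO (n = 4), on linear axes from 0, with mean and SD. Plcg1, Nfatc2, Dgka, Itpr2, Itpr3 and Orai3 are higher, and Pag1 lower, in all 7 mutant libraries than in any wild-type library, while Itpr1 is lower in all 3 Bcl11bm/m libraries (4.71 to 8.31 against 13.5 to 21.8 in wild-type).

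Of the surface receptors that assist the TCR, Cd2, an adhesion receptor that enhances TCR signalling, was at 75.1, 111, 119.6, 103 and 107 FPKM in wild-type, 178, 166 and 158 FPKM in Bcl11bm/m and 48.3, 115, 139.9 and 70.7 FPKM in cKO. Bcl11bm/m libraries were above all others, and cKO libraries scattered on both sides of wild-type, with replicates 1 and 4 low. Cd2 rose 1.62-fold in Bcl11bm/m, a log2 difference of 0.71 (SE 0.16, adjusted p = 0.0169, and 0.0650 to 0.0651 without Bcl11bm/m replicate 1 or 2), a call also lost in a fit of all 3 groups, and in cKO the difference was -0.24 (95% confidence interval -0.88 to 0.40, adjusted p = 0.612). Cd28, the costimulatory receptor for B7 proteins, was at 78.9, 91.3, 96.3, 110.2 and 100.16 FPKM in wild-type, 98.9, 86.7 and 83.8 FPKM in Bcl11bm/m and 41.8, 61.9, 46.2 and 31.8 FPKM in cKO. The 4 cKO libraries were below every other library. Cd28 fell in cKO to 0.476 times the wild-type mean, a log2 difference of -1.08 (SE 0.18, adjusted p = 0.00654). Bcl11bm/m differed from wild-type by -0.08 (95% confidence interval -0.37 to 0.21, adjusted p = 0.718) and from cKO by 1.002 (SE 0.21, adjusted p = 0.0279, and 0.0712 to 0.0833 without any Bcl11bm/m library or cKO replicate 1).

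Cd5, an inhibitory receptor whose level is known to follow the strength of TCR signalling in thymocytes, had the largest difference of the members in Bcl11bm/m. It was at 66.3, 74.4, 86.7, 148 and 139.9 FPKM in wild-type, 38.8, 40.2 and 32.8 FPKM in Bcl11bm/m and 23.7, 98.1, 73.3 and 35.2 FPKM in cKO. The Bcl11bm/m libraries lay close together below each wild-type library, whereas cKO replicates 1 and 4 were as low or lower and replicates 2 and 3 within the wild-type range. Cd5 fell in Bcl11bm/m to 0.362 times the wild-type mean, a log2 difference of -1.37 (SE 0.28, adjusted p = 0.0122). In cKO the difference was -0.96 (95% confidence interval -1.88 to -0.04, adjusted p = 0.146), and between the mutants it was -0.41 (95% confidence interval -1.48 to 0.66, adjusted p = 0.591). Cd5 carries the RUNX and ETS letters in the window shown above.

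Cd6, a relative of Cd5 that lies 50366 bases from it on the same strand of chromosome 19, was at 81.7, 98.6, 99.7, 135 and 144 FPKM in wild-type, 55.6, 59.4 and 50.8 FPKM in Bcl11bm/m and 53.0, 104, 66.6 and 81.3 FPKM in cKO. As for Cd5, all 3 Bcl11bm/m libraries were below wild-type and the cKO libraries were spread. Cd6 fell in Bcl11bm/m to 0.495 times the wild-type mean, a log2 difference of -0.97 (SE 0.19, adjusted p = 0.0104), and differed in cKO by -0.56 (95% confidence interval -1.05 to -0.06, adjusted p = 0.122). Cd69, an early activation marker induced by TCR signals, was at 14.4, 17.5, 25.5, 35.1 and 24.9 FPKM in wild-type, 16.5, 14.0 and 13.5 FPKM in Bcl11bm/m and 4.61, 14.8, 12.2 and 3.48 FPKM in cKO. cKO replicates 1 and 4 were the lowest of all 12, and replicate 2 overlapped with wild-type replicate 1. Cd69 fell in cKO to 0.373 times the wild-type mean, a log2 difference of -1.46 (SE 0.40, adjusted p = 0.0356, and 0.0563 to 0.113 without wild-type replicate 2, 3, 4 or 5 or cKO replicate 1 or 4), a call also lost with no filter, and in Bcl11bm/m the difference was -0.58 (95% confidence interval -1.19 to 0.02, adjusted p = 0.177). The same cKO libraries, replicates 1 and 4, were thus the lower pair for Cd2, Cd5 and Cd69. With quality weights Cd69 was also called lower in Bcl11bm/m, and Cd6 in cKO.

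**Figure D4:**
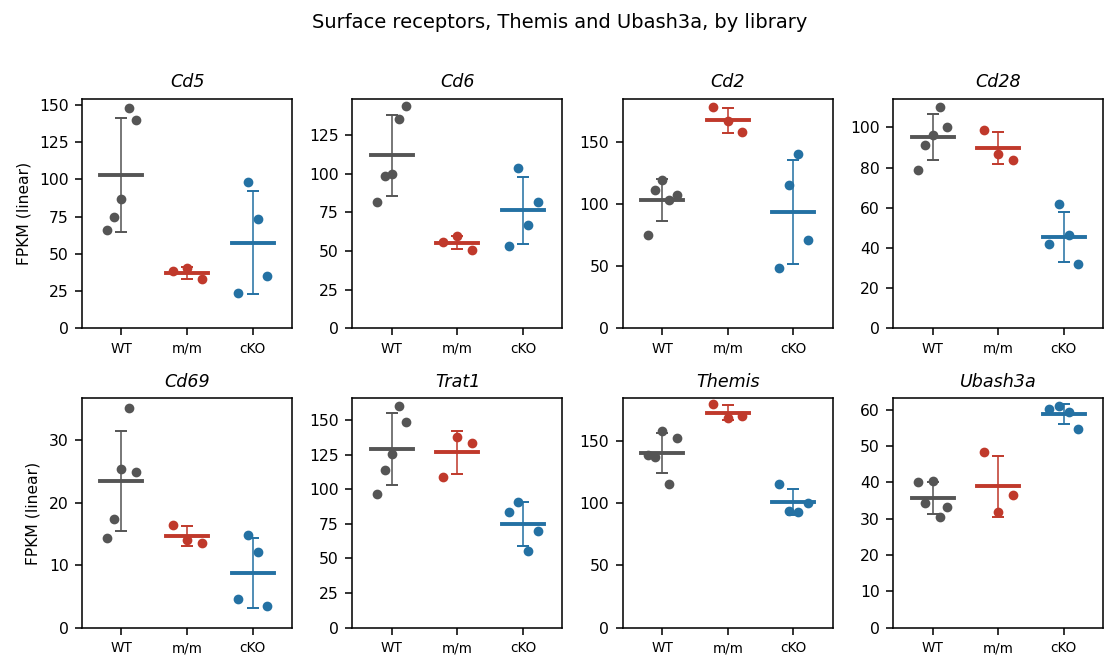
FPKM of surface receptors, the adaptors Trat1 and Themis and the inhibitor Ubash3a in each library (points) of wild-type (n = 5), Bcl11bm/m (n = 3) and cKO (n = 4), on linear axes from 0, with mean and SD. Cd5 and Cd6 are lower in all Bcl11bm/m libraries than in wild-type (32.8 to 40.2 against 66.3 to 148 for Cd5), and Cd28 and Trat1 are lower, and Ubash3a higher, in all cKO libraries (31.8 to 61.9 against 78.9 to 110.2 for Cd28).

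Themis, a thymocyte protein that binds Grb2 and is required for positive selection, differed most clearly between the mutants. It was at 139, 137, 158, 116 and 153 FPKM in wild-type, 180.0, 169 and 170.4 FPKM in Bcl11bm/m and 116, 93.9, 93.1 and 100.01 FPKM in cKO. All Bcl11bm/m libraries were above the wild-type range and all cKO libraries just below it. The difference between the mutants was 0.78 (SE 0.11, adjusted p = 0.00823), the lowest adjusted p of the members in that comparison. Against wild-type, Themis fell in cKO by a log2 difference of -0.47 (SE 0.13, adjusted p = 0.0345, and 0.0690 to 0.0977 without wild-type replicate 2, 3 or 5 or cKO replicate 2, 3 or 4), which was also lost with median-ratio scaling, with quantile normalization and without short RNA features, and differed in Bcl11bm/m by 0.31 (SE 0.12, adjusted p = 0.135). Sh2d2a, the TSAd adaptor, passed in neither mutant, at -0.35 (SE 0.15, adjusted p = 0.159) and -0.19 (SE 0.14, adjusted p = 0.397). With quality weights it was called lower in Bcl11bm/m.

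Among the inhibitors, Pag1, the membrane protein that anchors Csk near Lck, was at 41.1, 39.8, 42.5, 31.2 and 52.3 FPKM in wild-type, 23.3, 26.7 and 28.7 FPKM in Bcl11bm/m and 29.4, 29.6, 19.7 and 19.7 FPKM in cKO. All 7 mutant libraries were below the lowest wild-type library. Pag1 fell to 0.634 times the wild-type mean in Bcl11bm/m, a log2 difference of -0.62 (SE 0.16, adjusted p = 0.0306, and 0.0502 to 0.113 without wild-type replicate 2, 3 or 5 or any Bcl11bm/m library), and to 0.595 times in cKO, a difference of -0.73 (SE 0.18, adjusted p = 0.0252, and 0.0536 to 0.0780 without wild-type replicate 2, 3 or 5 or cKO replicate 3 or 4). Both calls were lost with median-ratio scaling, with quantile normalization and without short RNA features. Ptpn6, the SHP-1 phosphatase, was at 101, 124, 122, 119 and 91.0 FPKM in wild-type, 155, 142 and 161 FPKM in Bcl11bm/m and 122, 150.0, 188 and 89.8 FPKM in cKO. Bcl11bm/m libraries were above wild-type, and cKO ran from below it to the highest value of all. Ptpn6 rose 1.37-fold in Bcl11bm/m, a log2 difference of 0.46 (SE 0.13, adjusted p = 0.0477, and 0.0540 to 0.157 without any wild-type library or any Bcl11bm/m library), and differed by 0.26 (95% confidence interval -0.19 to 0.72, adjusted p = 0.420) in cKO. The call was also lost with no filter, a filter at 5 FPKM, a fit of all 3 groups and robust empirical Bayes. Csk and the phosphatase Ptpn22 did not pass, but Ptpn22 was called higher in both mutants with median-ratio scaling, quantile normalization and without short RNA features, and so was Csk except in Bcl11bm/m with median-ratio scaling. Ptpn22 was nevertheless above every wild-type library in all 7 mutant libraries, with differences of 0.36 (SE 0.15, adjusted p = 0.141) and 0.34 (SE 0.13, adjusted p = 0.108).

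Of the ubiquitin ligases and adaptor-like inhibitors, Ubash3a, a suppressor of TCR signalling that binds Cbl, was at 40.0, 34.3, 40.4, 30.3 and 33.1 FPKM in wild-type, 48.2, 31.9 and 36.6 FPKM in Bcl11bm/m and 60.0, 61.0, 59.2 and 54.7 FPKM in cKO. The 4 cKO libraries were close together and above every other library, and Bcl11bm/m overlapped with wild-type. Ubash3a rose 1.65-fold in cKO, a log2 difference of 0.71 (SE 0.11, adjusted p = 0.00553). Bcl11bm/m differed from wild-type by 0.11 (95% confidence interval -0.25 to 0.47, adjusted p = 0.691) and from cKO by -0.60 (SE 0.14, adjusted p = 0.0405, and 0.0656 to 0.130 without Bcl11bm/m replicate 2 or 3 or any cKO library), the latter call also lost with no filter. Cbl, the ligase that targets the activated receptor, was at 128, 118, 121, 34.2 and 131 FPKM in wild-type, 84.1, 91.6 and 99.6 FPKM in Bcl11bm/m and 139.7, 124, 128 and 110.1 FPKM in cKO. Wild-type replicate 4 was far below all other libraries, and without it Bcl11bm/m was lower than wild-type by a difference of -0.44 (adjusted p = 0.0241). With all libraries that difference was -0.07 (SE 0.42, adjusted p = 0.936). Bcl11bm/m was below each cKO library, with a difference of -0.44 (SE 0.11, adjusted p = 0.0496, and 0.0518 to 0.123 without any Bcl11bm/m library or any cKO library), and of the alternatives that kept all libraries only a pseudocount of 0.1, median-ratio scaling and quality weights kept this call. Cblb, Sla and Sla2, which lower the level of the receptor at the surface, passed in neither mutant. Sla and Sla2 were called lower in both mutants with quality weights. Without wild-type replicate 1, both were called lower in Bcl11bm/m, and Sla in cKO.

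Of the inhibitory kinases, Dgka, which removes diacylglycerol by phosphorylation, was at 177, 144, 149, 147 and 148 FPKM in wild-type, 207, 245 and 219 FPKM in Bcl11bm/m and 216, 205, 232 and 208 FPKM in cKO. All 7 mutant libraries were above the highest wild-type library, replicate 1. Dgka rose 1.46-fold in Bcl11bm/m, a log2 difference of 0.55 (SE 0.12, adjusted p = 0.0139, and 0.0719 without Bcl11bm/m replicate 2), and 1.41-fold in cKO, a difference of 0.49 (SE 0.11, adjusted p = 0.0181, and 0.0518 to 0.0564 without wild-type replicate 2 or 5 or cKO replicate 3). With median-ratio scaling the Bcl11bm/m call was lost. The mutants differed from each other by 0.05 (95% confidence interval -0.20 to 0.30, adjusted p = 0.775). Exons of Dgka overlap Pmel on the opposite strand, which was itself higher, at 0.260 to 1.34 FPKM in wild-type, 1.90 to 2.89 in Bcl11bm/m and 2.45 to 3.48 in cKO. Pmel was far below Dgka in each library, and its part in the Dgka difference was not tested. Dgkz and Map4k1 did not pass, with differences between -0.27 and 0.21 in the mutants. With quality weights Dgkz was called higher in cKO. In all, 13 of the 49 members share exon bases with another annotated gene, for most of them on the opposite strand. The library chemistry is described differently in the labels and in the study's methods, and the sources used here do not state whether strand was used in counting.

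The mutants were also compared directly. Between Bcl11bm/m and cKO, 8 of the 49 members (16.3%) passed, where 10.2% of all features did. Themis, Fyb, Cd28 and Trat1 were higher in Bcl11bm/m (4 members, beside 7.63% of all features), and Cd3e, Cbl, Ubash3a and Stim1 were lower (4 members, beside 2.60%), with the values given above. The groups did not overlap for 14 members, beside 26.7% of all features. Age may differ between these groups, and depth was higher in each cKO library than in any Bcl11bm/m library, so that neither can be told apart from genotype. The groups did not overlap with wild-type for 19 members in Bcl11bm/m, beside 25.4% of all features, and for 10 in cKO, beside 16.1%.

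The counts of called members moved with single libraries. In Bcl11bm/m against wild-type the 12 became 20 without wild-type replicate 1, 7 without replicate 3 and 6 without replicate 5, and 5, 3 and 5 without Bcl11bm/m replicates 1, 2 and 3. In this order, 40.8%, 14.3%, 12.2%, 10.2%, 6.12% and 10.2% of members passed, beside 21.8%, 14.5%, 13.3%, 11.4%, 9.47% and 12.6% of all features. In cKO against wild-type the 10 became 18, 5, 5 and 4 without wild-type replicates 1, 2, 3 and 5, and 5 without cKO replicate 3 or 4. These were 36.7%, 10.2%, 10.2%, 8.16%, 10.2% and 10.2% of members, beside 24.8%, 8.70%, 9.71%, 8.02%, 7.22% and 7.17% of all features. Between the mutants the 8 became 5, 1 and 1 without Bcl11bm/m replicates 1, 2 and 3, and 2, 4 and 4 without cKO replicates 1, 2 and 4. Here 10.2%, 2.04%, 2.04%, 4.08%, 8.16% and 8.16% of members passed, beside 7.49%, 3.03%, 2.90%, 3.64%, 6.02% and 6.60% of all features. Plcg1, Cd5 and Cd6 in Bcl11bm/m, Plcg1, Ubash3a, Cd28 and Nfatc2 in cKO, and Themis between the mutants remained called whichever library was left out.

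A list of 64 further pathway genes was tested, among them the kinases, coreceptors, calcium channels and Ras regulators that are not members. In Bcl11bm/m 12 rose and 9 fell, 32.8% of the list against 17.3% of all features, and in cKO 7 rose and 4 fell, 17.2% against 14.5%. Among the proximal kinases, Syk, a relative of Zap70, rose from 12.2 ± 1.19 FPKM in wild-type to 26.2 ± 3.40 in Bcl11bm/m (log2 difference 1.04, adjusted p = 0.00102) and 18.9 ± 1.48 in cKO (0.59, adjusted p = 0.00814). The Src-family kinase Fyn fell from 38.0 ± 3.40 to 28.7 ± 0.717 FPKM in Bcl11bm/m (difference -0.39, adjusted p = 0.0311), and in cKO it differed by -0.05 (adjusted p = 0.788). Lck (781 ± 111, 587 ± 33.4 and 656 ± 68.6 FPKM in wild-type, Bcl11bm/m and cKO) and Zap70 (75.5 ± 15.5, 74.4 ± 11.6 and 79.1 ± 4.11) passed in neither mutant. Between the mutants 7 were higher in Bcl11bm/m, Syk among them (0.45, adjusted p = 0.0492), and 3 lower, 15.6% of the list against 10.2% of all features.

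Calcium genes of this list moved in both directions or did not pass. Ppp3r1, Nfat5, Stim2, Rcan1 and Cabin1 passed in neither mutant. In Bcl11bm/m the calcium channel Orai3 rose from 2.54 ± 1.23 to 11.9 ± 2.30 FPKM, a log2 difference of 1.92 (SE 0.29, adjusted p = 0.00300). The calcineurin subunit Ppp3cc rose from 3.95 ± 1.49 to 12.9 ± 2.05 FPKM, by 1.53 (SE 0.27, adjusted p = 0.00617). The inositol trisphosphate receptor Itpr2 rose from 48.0 ± 12.9 to 114 ± 3.36 FPKM, by 1.28 (SE 0.24, adjusted p = 0.00893). For these 3 genes each Bcl11bm/m library was above each wild-type library. The related receptor Itpr1 fell from 17.7 ± 3.44 to 5.97 ± 2.03 FPKM, by 1.44 on the log2 scale (SE 0.22, adjusted p = 0.00310). In cKO Itpr1 stayed at 17.6 ± 3.58 FPKM, and the mutants differed by -1.43 (SE 0.22, adjusted p = 0.0121). Itpr1 was thus lower in Bcl11bm/m than in both other groups. Orai3 (9.45 ± 3.76 FPKM, difference 1.56, adjusted p = 0.00957) and Itpr2 (79.7 ± 9.65 FPKM, 0.76, adjusted p = 0.0440) rose in cKO as well, and so did the channel Orai2, by 0.68 (SE 0.18, adjusted p = 0.0350). Itpr3, which was added to the plot after its values were seen, rose in both, by 0.64 (adjusted p = 0.0352) and 0.58 (adjusted p = 0.0435).

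Ras and phosphoinositide regulators and the coreceptors were also in the list. In Bcl11bm/m the Ras GTPase-activating protein Rasa3 rose from 15.9 ± 4.78 to 45.1 ± 2.15 FPKM, by 1.50 (SE 0.25, adjusted p = 0.00528). Inpp5d, the SHIP1 phosphatase, fell from 27.9 ± 6.02 to 11.4 ± 3.83 FPKM, a difference of -1.24 (SE 0.24, adjusted p = 0.00877). The groups did not overlap for either gene. The coreceptor genes Cd4 and Cd8b1 fell there, Cd4 from 598 ± 52.5 to 299 ± 18.5 FPKM (difference -0.99, adjusted p = 0.00215) and Cd8b1 from 1661 ± 302 to 845 ± 79.1 FPKM (difference -0.96, adjusted p = 0.0250). Cd4 was also used to define the sorted cells. In cKO the ERK phosphatase Dusp6 fell from 11.9 ± 3.72 to 3.85 ± 0.841 FPKM, a difference of -1.39 (SE 0.22, adjusted p = 0.00529). The Ras GTPase-activating protein Rasa1 (difference -0.54, adjusted p = 0.0281) and the actin regulator Wipf1 (-0.41, adjusted p = 0.0373) fell with it, and the adaptor Sh2b3 rose by 0.71 (adjusted p = 0.0362). Between the mutants, Ppp3cc (1.12, adjusted p = 0.0302), Wipf1 (0.84, adjusted p = 0.0106), the adaptor Nck2 (0.56, adjusted p = 0.0132) and the phosphatase Ptpn2 (0.56, adjusted p = 0.0121) were higher in Bcl11bm/m. The adaptors Grap (-0.72, adjusted p = 0.0428) and Dok2 (-0.67, adjusted p = 0.0428) were lower there.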

How the data were processed

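RNA-seq of 12 libraries was used, in groups taken from the sample titles. The authors mapped reads with TopHat2 (2.8.0 in the submitters' processing notes) to mm9 and derived the deposited FPKM from Cufflinks 2.1.1, 1 value per feature and library, which were used as they stand. No scaling between libraries is stated, and all 12 columns were mapped. Library preparation is given as strand-specific in the study's methods. The labels' extraction text names instead a cDNA kit for low input, and double-negative NKT cells as the sorted cells, where source names and methods give CD4+CD8+ thymocytes.

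Analysis was on log2(FPKM + 1). Features averaging 1 FPKM or more over all libraries (10780) were tested with limma 3.58.1 in R 4.3.3 (lmFit, eBayes with a trend, two-sided) on the groups compared, with Benjamini-Hochberg adjustment over all of them and a threshold of 0.05. The scripts were tested on simulated data. The members and gene lists were chosen with earlier results of these data known, and Pdpk1 replaced a wrong symbol in the list of further pathway genes after values were seen. Hras was matched as Hras1. Values in every library are given for the CD3 chains, Lat, Lcp2 and, per comparison, up to 12 called members with the largest difference. Up to 4 further pathway genes per direction were named by size, and Lck, Zap70, Syk, Fyn, Itpr3 and the genes of this list that are named without values were named after their values were seen. A few of these genes are not reported here.

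The alternatives were no filter or a filter at 5 FPKM, a pseudocount of 0.1, scaling by median ratios or quantiles, omission of short RNA features, 1 fit of all 3 groups, robust empirical Bayes, quality weights per library, a block on replicate number and leaving out each library. Depth was estimated because no read numbers are given: 64.1 to 70.5% of low FPKM values lay within 0.1 of multiples of a common step, where an even spread would give 20%. Positions are from GENCODE vM1 on mm9, and promoter windows from RefSeq on GRCm38.p6. The other steps used matplotlib 3.10.9, numpy 2.4.6 and pandas 2.3.3 in Python 3.11.15.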

Additional observations from a re-analysis of the deposited data

Results flagged for a closer look

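In 8 of the 98 groups of 4 or 5 libraries examined, 1 per gene and group, a single library stood apart from the rest of its group, where chance flags about 1 in 20 groups, or 4.9 of 98. Wild-type replicate 4 was high for Lat, at 915 FPKM beside 515 to 626 in the other wild-type libraries, and low for Cbl, at 34.2 beside 118 to 131, and for the Ras exchange factor Sos1, at 4.76 beside 7.69 to 8.28. Wild-type replicate 5 was high for Cblb, at 8.89 beside 5.06 to 6.03, and wild-type replicate 1 for Dgka, at 177 beside 144 to 149. cKO replicate 3 was high for Csk, at 195 beside 129.7 to 135, for Stim1, at 57.0 beside 45.7 to 47.1, and for Grb2, at 69.9 beside 63.0 to 63.2.

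The mutants differed from each other in limma for 8 members, given as log2 differences of Bcl11bm/m minus cKO. The difference was positive for Cd28 (1.002), Themis (0.78), Trat1 (0.77) and Fyb (0.66). It was negative for Ubash3a (-0.60), Stim1 (-0.51), Cd3e (-0.46) and Cbl (-0.44). All but Themis lost the call when at least 1 library was left out.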

How the results depend on the processing

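Counts of called members (12 in Bcl11bm/m and 10 in cKO against wild-type, 8 between the mutants) became 27, 21 and 11 with library quality weights, and 11, 9 and 4 with no filter on low values. Leaving out each library gave 3 to 20, 4 to 18 and 1 to 7. With the replicate block 0, 2 (Ubash3a and Nfatc2) and 0 members passed in limma (7, 16 and 11 at an unadjusted p under 0.05). The block kept only libraries whose replicate number occurs in both groups. It thus left out wild-type replicates 4 and 5 for Bcl11bm/m, wild-type replicate 5 for cKO, and cKO replicate 4 between the mutants. Blocking and the loss of these libraries cannot be told apart in its counts. Correlations of same-numbered deviations from the group means ran from -0.21 to 0.15. Differently numbered libraries were not compared in this way, so these values cannot decide whether equal numbers paired the libraries. Of all features, 1866, 1564 and 1102 were called, 293, 445 and 46 with the block, and 3604, 3176 and 2173 with quality weights. With no filter, which tests more features, 1944, 1250 and 1211 were called, or 11.3%, 7.29% and 7.06%. A mean of at least 5 FPKM, which tests fewer features, gave 1189 in Bcl11bm/m and 656 between the mutants. Leaving out a library gave 1021 to 2349, 700 to 2678 and 313 to 1121. Without the block, 5 of the 12, 6 of the 10 and 4 of the 8 calls remained under every alternative other than a left-out library, and 3, 4 and 1 under each left-out library. The split of higher and lower member calls changed. Quality weights gave 9 and 18 in Bcl11bm/m and 5 and 16 in cKO, where 45.3% and 26.7% of all called features were higher. Quantile normalization gave 9 and 5 in Bcl11bm/m, 7 and 4 in cKO and 3 and 4 between the mutants, omission of short RNA features 9 and 7, 7 and 4, and 3 and 5, and median-ratio scaling between the mutants 3 and 6. The higher share of all called features was 49.2%, 41.4% and 53.4% with quantile normalization. It was 64.8%, 52.9% and 65.3% without short RNA features, and 54.6% between the mutants with median-ratio scaling. Differences that turned sign were not past the threshold. Lcp2 in Bcl11bm/m went from 0.00 to -0.10 with quality weights, and from -0.14 (Bcl11bm/m replicate 1 omitted) to 0.074 (Bcl11bm/m replicate 2 omitted) when a library was left out, with -0.10 and -0.03 on omitting wild-type replicates 1 and 2. Cd3d in cKO went from -0.09 to 0.028 with median-ratio scaling, 0.072 with quantile normalization and 0.068 without short RNA features, and ran from -0.29 (wild-type replicate 1 omitted) to 0.079 (wild-type replicate 4 omitted). Cd3g between the mutants went from -0.07 to 0.006 on omitting Bcl11bm/m replicate 2 and -0.20 on omitting replicate 1. The median differences of positive and of negative regulators moved under each alternative by less than 1 SD of the per-library medians in the reference group. In wild-type those per-library medians ran from 5.87 to 6.40 for positive and from 5.94 to 6.52 for negative regulators. This spread is wide beside the median differences, so the comparison does not show that they were stable. The cause of these changes was not tested. Depth limits Ppp3ca and Orai1 most, with as few as 16 and 21 estimated fragments in a library.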
